A study of Mus musculus with 141 samples.

Results

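Rn45s, Malat1, Neat1, Gas5 and Snhg6 are 5 noncoding RNAs among the 24423 genes listed for every library. They were chosen by gene name for their share of the counts in these same libraries, so shares, ranks and their spread are given below as a description, without a test. Differences between tissues and correlations over strains were tested on the same counts from which the RNAs were chosen, so these tests are not independent of that choice. The word abundant fitted these RNAs unequally. The median rank by count, from the highest gene down, was 1 for Rn45s in each tissue and 9, 3 and 3 for Malat1 in liver, lung and kidney. Neat1 had median ranks of 52, 30 and 36, Gas5 of 2368, 2882 and 3199, and Snhg6 of 6736, 10017 and 8371, so Gas5 and Snhg6 were not among the abundant RNAs.

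Rn45s is the precursor transcript that RNA polymerase I makes from the ribosomal DNA repeats and that is cut into the large ribosomal RNAs. Rn18s and Rn28s1, names of mature ribosomal RNAs, were not among the genes listed. Counts of Rn45s may therefore include mature ribosomal RNA left after depletion, which was not tested. Malat1 and Neat1 are neighbouring long noncoding RNAs that stay in the nucleus, where Malat1 gathers in the nuclear speckles that hold splicing factors and Neat1 is the scaffold around which paraspeckles form. Gas5 and Snhg6 are host genes: small nucleolar RNAs, which guide the chemical modification of ribosomal RNA, are released from their introns, and the spliced host RNAs are cleared quickly by nonsense-mediated decay. Gas5 takes its name from its rise in growth-arrested cells.

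Total RNA was sequenced from 3 organs of Collaborative Cross mice, inbred lines that all descend from the same 8 founders. There was 1 male for each of 47 strains, aged 8 to 12 weeks, and 1 library of liver, 1 of lung and 1 of kidney per mouse. All animals ate the NTP 2000 wafer diet and were exposed to clear air in mesh chambers for 6 hours a day, and whole tissue was snap frozen, so the groups differ by tissue and by nothing else in the labels. Libraries were made with a TruSeq total RNA kit after ribosomal RNA depletion and read as 50-base single ends. A strain is represented by 1 mouse, so genotype cannot be told apart from the individual. Tissue tests, with strain as a term, measure how the difference between tissues varies over strains. Correlations and slopes rest on the spread between strains. Sequencing batch was not in the labels and was not used here.

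Libraries held 1738046 to 42158454 counts (median 9043226), and 1341632 to 38738025 (median 6136249) once Rn45s was set aside. Between 10138 and 18955 genes had a count. Markers of each tissue were as labelled: summed liver markers had a median of 75904 CPM (counts per 1000000 counts) in liver against 104 in lung and 2291 in kidney, summed lung markers 18017 in lung against 18.3 in liver and 11.2 in kidney, and summed kidney markers 21439 in kidney against 16.04 in liver and 20.03 in lung. These are bulk tissues, in which fewer cells of a type and less RNA per cell cannot be told apart.

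On NCBIM37 (mm9), the build to which the reads were mapped, Malat1 lay at chr19:5795690-5802671 on the minus strand and overlapped Gm20417 on the opposite strand. Neat1 lay at chr19:5824708-5845478, also on the minus strand, with no overlapping gene. Gas5 lay at chr1:162964553-162968670 on the plus strand, over 9 small nucleolar RNA genes of the same strand and against Zbtb37 on the other strand. Rn45s and Snhg6 were not found by name in the annotation of that build. Whether the counting used strand is not given in the sources used here, so reads of Gas5 and Zbtb37, or of Malat1 and Gm20417, may not be separated.

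Promoter windows, from 250 bases before to 50 after the start, were taken from the RefSeq annotation of GRCm38.p6, another build than that of the counts. They are shown for the most abundant nuclear RNA and for a snoRNA host, whose starts differ in base composition. The Malat1 window (chr19:5802623-5802922, minus strand) was 47.0% G and C, and the Gas5 window (chr1:161034916-161035215, plus strand) 62.0%, with a median of 52.7% over all windows. Capitals mark matches on either strand to TGACGTCA, the site read by factors of the CREB family, and to GGGCGG, a GC box.
Malat1: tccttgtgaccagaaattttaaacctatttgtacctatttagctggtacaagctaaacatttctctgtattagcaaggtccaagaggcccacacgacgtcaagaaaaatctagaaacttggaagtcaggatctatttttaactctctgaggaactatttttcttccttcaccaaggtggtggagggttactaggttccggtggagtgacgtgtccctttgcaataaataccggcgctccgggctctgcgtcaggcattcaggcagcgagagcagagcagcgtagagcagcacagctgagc
Gas5: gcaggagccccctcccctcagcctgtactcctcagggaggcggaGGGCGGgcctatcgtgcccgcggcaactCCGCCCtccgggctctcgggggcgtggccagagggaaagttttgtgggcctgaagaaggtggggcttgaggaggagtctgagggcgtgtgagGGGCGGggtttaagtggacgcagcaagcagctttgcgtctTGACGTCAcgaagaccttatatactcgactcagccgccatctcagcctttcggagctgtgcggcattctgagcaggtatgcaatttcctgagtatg
The Gas5 window held 1 TGACGTCA and 3 GGGCGG. RefSeq gives Gas5 another window, chr1:161034351-161034650, not printed here, with 73.7% G and C, 5 GGGCGG and no TGACGTCA. The Malat1 window held neither motif. Of 32851 windows, 1.79% held TGACGTCA and 35.7% held GGGCGG, and the 2 motifs do not overlap in these windows. Counts of the Mir6236 gene moved with those of Rn45s, as described further on. Its mature miRNA is shorter than the reads, so these counts are not a measure of the mature miRNA. The mature sequence is shown for reference, with its seed, bases 2 to 8, in capitals.
miR-6236: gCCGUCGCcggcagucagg

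Rn45s took the largest share of the counts in most libraries, and its SD of log2 TMM-scaled CPM between strains exceeded that of 98.6%, 99.7% and 99.7% of 12127 genes in liver, lung and kidney. TMM is a scaling by a trimmed mean of ratios to a reference library. In liver its share ran from 0.321% in CC021 through a median of 34.9% to 69.0% in CC033. In lung it ran from 0.695% in CC057 through 17.96% to 71.7% in CC015. In kidney it ran from 0.146% in CC001 through 25.4% to 63.1% in CC033. The 3 tissues overlapped over nearly their whole ranges. Rn45s was the top gene in 121 libraries, 42 of liver, 37 of lung and 42 of kidney, and it passed 50% of the counts in 26 libraries and 25% in 73. It stayed under 5% in 19 libraries, 11 of them lungs, and under 1% in 6.

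**Figure D1:**
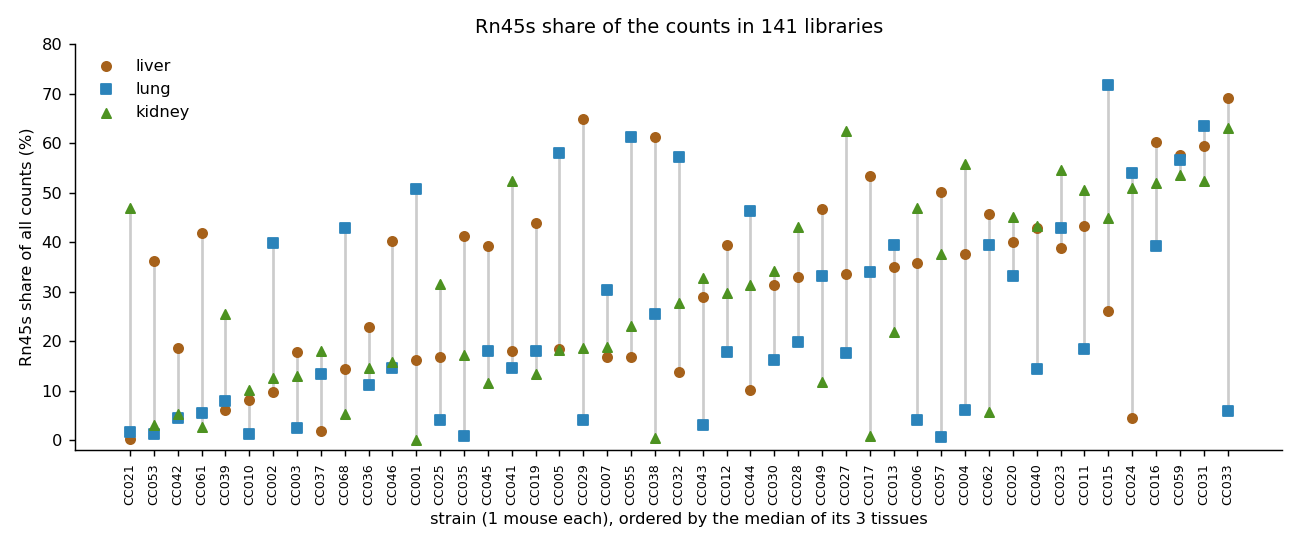
Share of all counts assigned to Rn45s (vertical axis, percent) for the liver, lung and kidney library of each of 47 strains (horizontal axis, ordered by the median of the 3 tissues). Each point is 1 library and the points of a strain come from 1 mouse; in CC001 they lie at 16.2% in liver, 50.6% in lung and 0.146% in kidney.

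The share of Rn45s differed widely between tissues of 1 mouse. The liver of CC001 had 16.2%, its lung 50.6% and its kidney 0.146%, a 348-fold range within 1 animal and the widest of the 47. CC033 was highest of all strains in liver and kidney, with 69.0% and 63.1%, and had 5.98% in lung. CC021 had 0.321%, 1.71% and 46.9% in liver, lung and kidney. Such spreads were common: the highest tissue of a strain exceeded its lowest 4.12-fold at the median, more than 10-fold in 13 strains, and 6 strains had a tissue over 50% beside another under 5%. Only CC031 (59.4%, 63.3% and 52.3%) and CC059 (57.5%, 56.6% and 53.5%) were over 50% in all 3 tissues, and no strain was under 5% in all 3.

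For log2 of the Rn45s count over all other counts, the Rn45s ratio, tissue took 3.06% of the sum of squares, strain 33.4%, close to the 32.9% of the degrees of freedom that strains hold, and the rest 63.6%. Correlations between tissues across strains were near 0, at r = 0.07 for liver and lung (rho = -0.04, permutation p = 0.622, q = 0.738), -0.02 for liver and kidney (rho = 0.10, p = 0.875, q = 0.938) and 0.00 for lung and kidney (rho = 0.09, p = 0.988, q = 0.988). Here and below q is the Benjamini-Hochberg adjusted p, for this family over 15 correlations, 5 RNAs by 3 tissue pairs. With the 2 strains most distant from the median removed, r was -0.10, 0.05 and 0.02.

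Lars2, which encodes the mitochondrial leucyl-tRNA synthetase, followed Rn45s more closely than any other tested gene and was the second gene by median rank in all 3 tissues. Its share of the counts ran from 0.0196% through 9.31% to 21.3% in liver, from 0.0473% through 6.62% to 22.1% in lung and from 0.0222% through 9.33% to 20.5% in kidney. The count of Lars2 was 30.5%, 35.02% and 35.01% of that of Rn45s at the median of the 3 tissues. Whether the reads counted for Lars2 come from its mRNA was not tested, so its counts are not read as a level of the synthetase mRNA. With Rn45s out of the denominator, the Lars2 share correlated with the Rn45s ratio at r = 0.95 in liver, 0.89 in lung and 0.96 in kidney (rho = 0.93, 0.95 and 0.96, q = 3e-05 in each, over a family of 15). The permutation p of 1e-05 behind these is the smallest that 100000 permutations can give. Without the 2 farthest libraries r was 0.91, 0.88 and 0.97.

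The Mir6236 gene had few counts but, being short, a median of 4197, 2682 and 2373 TPM. TPM is counts divided by length, scaled so that every library sums to 1000000. The mature miRNA given above has 19 bases, fewer than a read, so these values are not a measure of the mature miRNA. The share of the Mir6236 gene correlated with the Rn45s ratio at r = 0.59, 0.67 and 0.74 (rho = 0.38, 0.65 and 0.74, q at most 4.29e-05). Without the 2 farthest libraries r was 0.36, 0.61 and 0.68. Libraries with more Rn45s also had fewer genes with a count, at r = -0.31 in liver (rho = -0.38, q = 0.0468), -0.54 in lung (rho = -0.58, q = 0.000169) and -0.56 in kidney (rho = -0.58, q = 4.29e-05). Against the counts left to all other genes, which are also the denominator of the ratio, r was -0.24 (q = 0.118), -0.30 (q = 0.0503) and -0.44 (q = 0.00287), and against all counts it was 0.19 (q = 0.213), 0.31 (q = 0.0468) and 0.03 (q = 0.821). The part of depth or RNA quality in the level of Rn45s was not tested.

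Because TPM has a fixed sum, what Rn45s holds is taken from every other gene of the library by a single factor. Rn45s itself had median TPM of 158266 in liver, 83995 in lung and 106104 in kidney. Recomputing TPM with Rn45s left out raised every other gene 1.001-fold to 2.09-fold in liver (median 1.19), 1.003-fold to 2.41-fold in lung (median 1.09) and 1.001-fold to 1.79-fold in kidney (median 1.12). The factor was over 1.5 in 6 liver, 7 lung and 4 kidney libraries, and highest in CC033 liver, CC015 lung and CC033 kidney. With Lars2 and Mir6236 left out as well, it reached 4.40, 5.53 and 3.01 and was over 1.5 in 12, 14 and 15 libraries.

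**Figure D2:**
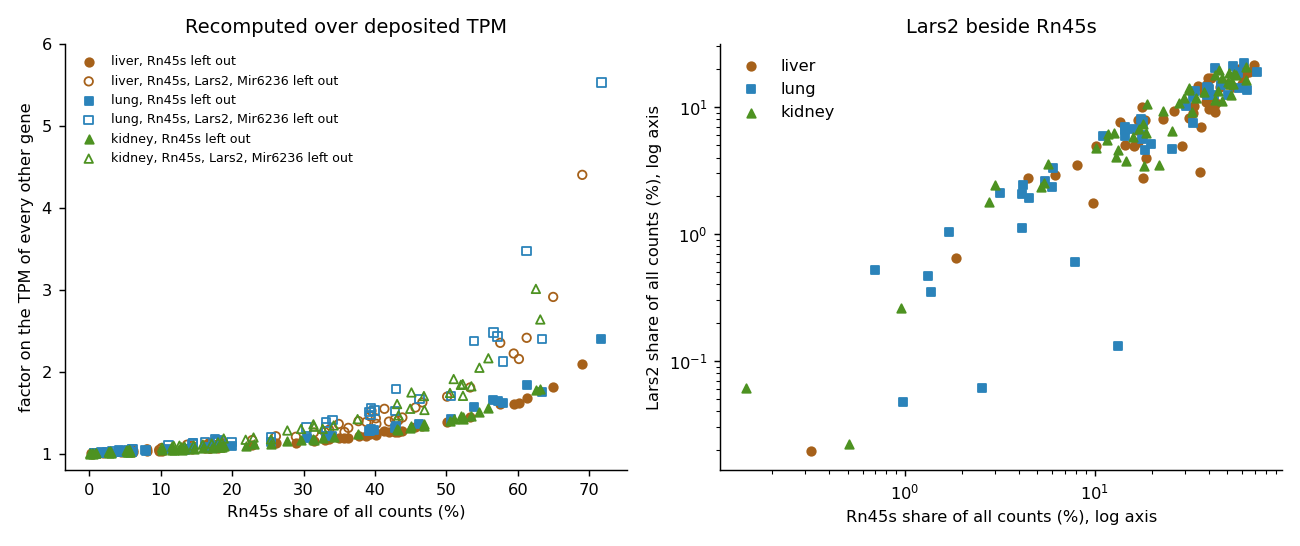
Left, the factor by which the TPM of every other gene rises when Rn45s (filled) or Rn45s, Lars2 and Mir6236 (open) are left out of the sum, against the Rn45s share of the counts in percent, 1 point per library. Right, the Lars2 share against the Rn45s share on log axes. The factor without Rn45s reaches 2.41, and Lars2 rises with Rn45s over the whole range in the 3 tissues.

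The same factor entered comparisons between tissues of 1 mouse. Between liver and lung it shifted every gene by -1.09 (CC015) to 1.03 (CC033) on the log2 scale, and by over 0.5 in either direction in 8 of 47 strains. Between liver and kidney the shift ran from -0.59 to 0.75, and between lung and kidney from -0.80 to 0.87. Averaged over the 47 strains the shifts were 0.03, 0.03 and 0.00, so the factor entered single mice far more than tissue means. A threshold of 1 TPM was affected too: without Rn45s a library gained a median of 311 genes at or above it in liver, 181 in lung and 251 in kidney, and at most 1352 (CC033 liver), 1933 (CC015 lung) and 1180 (CC033 kidney).

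The spread between strains on deposited TPM was also wider than without Rn45s. The median gene's SD of log2(TPM + 1) went from 0.487 to 0.380 in liver, from 0.576 to 0.410 in lung and from 0.459 to 0.357 in kidney. It was lower without Rn45s for 81.6%, 91.3% and 83.03% of genes. Malat1 in lung gave an example: its coefficient of variation was 31.1% on deposited TPM, 19.6% without Rn45s, 15.6% without Rn45s, Lars2 and Mir6236, and 13.5% on TMM-scaled CPM. Neat1 in liver, whose spread was larger, moved less, at 73.8%, 69.3%, 65.5% and 67.9% on these scales.

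How other genes moved with Rn45s depended on the scale, as shown by the slope of each gene's log2 value on the Rn45s ratio, in log2 units per doubling of the ratio. On deposited TPM, 83% of 9498 genes fell with Rn45s in liver, 95% of 12872 in lung and 87.5% of 11208 in kidney (limma, q ≤ 0.1). The fixed sum of TPM lowers other genes as Rn45s rises, so these calls describe the scale and are not a test of the genes. On TPM without Rn45s the falling shares were 37.1%, 73.2% and 48.8%. On counts without Rn45s, scaled by TMM, 10.2%, 0.458% and 4.78% of genes moved in either direction, 443 rising and 524 falling in liver, 35 and 24 in lung, and 302 and 234 in kidney. That balance changed with the scale and the filter: 672 rose and 183 fell in liver on TPM without Rn45s, Lars2 and Mir6236, 52 and 111 in lung and 315 and 117 in kidney, and on counts without the low-count filter 4834 and 1236, 4875 and 540, and 5418 and 938. In liver 160 genes were called once the 11 strains with a library under 4000000 counts were left out.

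Against that background, all 4 other RNAs fell with Rn45s on deposited TPM in all 3 tissues, as most genes did. The slopes were -0.15 in liver, -0.19 in lung and -0.16 in kidney for Malat1, -0.22, -0.18 and -0.22 for Neat1, -0.10, -0.18 and -0.13 for Gas5, and -0.15, -0.18 and -0.17 for Snhg6, with q of 0.0425 at most. As for all genes, these q describe the scale and are not a test of the RNAs. On TPM without Rn45s none of the 4 was called by limma in liver, with an unadjusted p of 0.194 or more, all 4 fell in lung (q at most 0.0603) and Malat1, Neat1 and Snhg6 fell in kidney (q at most 0.0632). On counts none of the 12 slopes passed by limma-voom, with q of 0.312 or more, and 1 of them, Malat1 in kidney, had an unadjusted p under 0.05 (slope -0.03, SE 0.02, p = 0.0479). Slopes on counts were not shown to differ between tissues for any of the 4 (q at least 0.704), in a test that called 1.62%, 0.544% and 0.033% of genes for liver against lung, liver against kidney and lung against kidney.

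**Figure D3:**
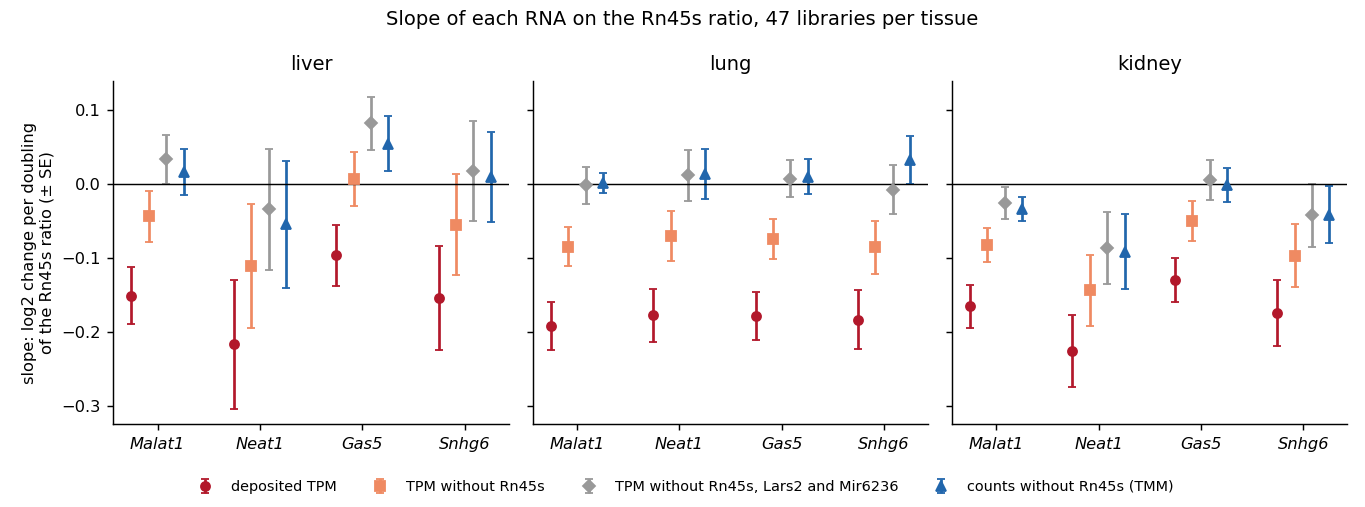
Slope of Malat1, Neat1, Gas5 and Snhg6 on the Rn45s ratio (vertical axis, log2 change per doubling, with the standard error) in 47 libraries of each tissue, on 4 scales. Slopes on deposited TPM lie below 0 in all 12 cases, from -0.22 to -0.10, and slopes on counts without Rn45s lie nearer to 0.

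Among all other genes, those with the smallest q on counts were led by Lars2 in each tissue, with slopes of 1.18 (SE 0.05, q = 2.96e-24) in liver, 1.15 (SE 0.08, q = 8.95e-16) in lung and 1.09 (SE 0.04, q = 8.36e-27) in kidney. Atn1, which encodes the nuclear corepressor atrophin, rose at 0.40 (q = 1.44e-06), 0.25 (q = 0.000692) and 0.37 (q = 1.48e-10). Naca, the alpha subunit of the complex that binds nascent polypeptides, rose at 0.49 in liver (q = 1.44e-06), Mir6236 at 0.63 in lung (q = 4.35e-05) and Prr12 at 0.29 in kidney (q = 8.46e-09). The genes that fell with the smallest q did so more gently: Glyctk (-0.25), Acadvl (-0.11), which starts the oxidation of very long chain fatty acids, and Atp5e (-0.18) in liver, Med22 (-0.07), Mprip (-0.10) and Leprotl1 (-0.05) in lung, and Ggt1 (-0.13), Cox7a2 (-0.09) and Zswim7 (-0.09) in kidney, with q of 0.0107 at most. Genes called in the same direction in all 3 tissues numbered 17 rising, among them Lars2, Mir6236, Atn1, Naca, Vamp2 and Snord33, and 4 falling, Agfg1, Med22, Polr1c and Unc50. Polr1c encodes a subunit shared by RNA polymerases I and III.

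Markers of other tissues also moved with Rn45s on counts. In kidney 2 of 5 tested liver markers rose (median slope of the list 0.33), and in liver 2 of 3 tested lung markers (median 0.41) and 1 of 2 tested kidney markers (median 0.39) rose, against medians over all genes of 0.00 in both tissues. Of all genes 302 of 11208 rose in kidney and 443 of 9498 in liver. On TPM without Rn45s, Lars2 and Mir6236 the marker counts were 1 of 5, 2 of 3 and 2 of 2. In lung 0 of 5 liver and 0 of 2 kidney markers passed by limma-voom, with 0 and 1 at an unadjusted p under 0.05 and medians of 0.12 and 0.18, and in kidney 0 of 3 lung markers passed, with 2 at that p and a median of 0.22. Most of these lists were low: in liver, summed lung and kidney markers had medians of 18.3 and 16.04 CPM. Summed lung markers had 11.2 in kidney and summed kidney markers 20.03 in lung, while summed liver markers had 2291 in kidney and 104 in lung. Without the low-count filter 4834 genes rose on counts in liver and 5418 in kidney. The part of these markers, or of low counts, in the slopes was not tested.

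Malat1 was the steadiest of the 5 RNAs within a tissue and, on counts without Rn45s, the one with the largest part of its sum of squares between tissues. To keep Rn45s out of the denominator, levels of the other 4 RNAs are given as counts per 1000000 non-Rn45s counts, called CPM without Rn45s. This denominator still held Lars2, which took up to 21.3% of all counts in liver, 22.1% in lung and 20.5% in kidney. Malat1 had 3681 in its lowest liver (CC033), 9163 at the median and 17053 in its highest (CC042). It had 20804, 43716 and 56168 in lung, and 17882, 37191 and 55498 in kidney. On CPM without Rn45s every liver lay below every lung and every kidney, while lung and kidney overlapped. On TMM-scaled CPM the highest liver, 17386, lay above the lowest lung, 12556, and the lowest kidney, 15089. The strain at an extreme also depended on the scale, and on TPM without Rn45s the lowest liver was that of CC040. As a share of all counts the medians were 0.612%, 3.51% and 2.70%, and liver was the lowest tissue in 46 of 47 strains. On CPM without Rn45s tissue, with 1.43% of the degrees of freedom, took 85.2% of the sum of squares. Part of this is shared by all genes: with these library totals their median was -1.28 between liver and lung and -0.86 between liver and kidney. The SD of log2 TMM-scaled CPM of Malat1 in lung, 0.20, was larger than that of only 12.0% of 12127 genes.

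**Figure D4:**
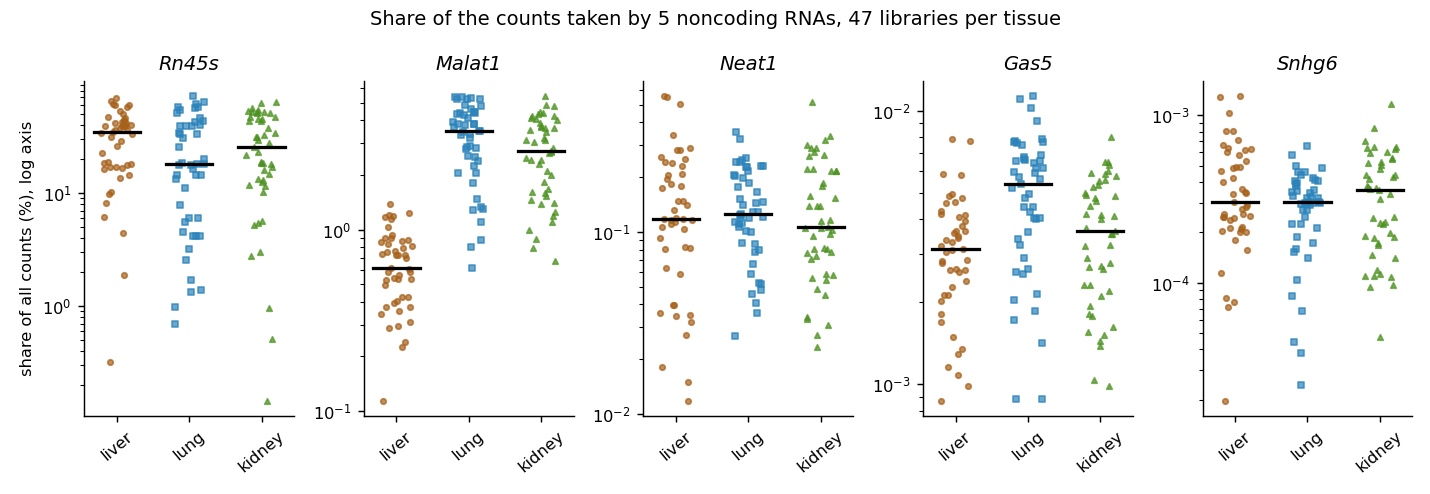
Share of all counts (percent, log axis) taken by Rn45s, Malat1, Neat1, Gas5 and Snhg6 in 47 libraries each of liver, lung and kidney, 1 point per library, with the median marked. The median of Malat1 lies at 0.612% in liver against 3.51% in lung and 2.70% in kidney, while Rn45s spans from 0.146% to 71.7%.

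Tissue differences were tested by limma-voom on TMM-scaled counts with strain as a block, since the 3 tissues of a strain come from 1 mouse, and were called at q ≤ 0.1 and a log2 difference of at least 1 in size. Of 12127 genes 55% were called between liver and lung (23.9% higher in liver, 31% in lung), 36.4% between liver and kidney (15.6% and 20.8%) and 46.1% between lung and kidney (25.5% and 20.6%). Of the 5 RNAs 3 were called between liver and lung, Rn45s, Neat1 and Snhg6, all higher in liver. Between liver and kidney 3 were called, Rn45s and Snhg6 higher and Malat1 lower in liver. Between lung and kidney none was called by limma-voom, edgeR or DESeq2, and 3, 3 and 2 of the 5 had an unadjusted p under 0.05. The direction depends on the scaling: with library totals without Rn45s in place of TMM, the median of all genes moved from -0.06 to -1.28 between liver and lung, from 0.00 to -0.86 between liver and kidney and from 0.04 to 0.40 between lung and kidney, and Malat1 was then the only RNA called. Differences are therefore also given relative to the median of all genes, as a range over the alternatives on counts and on TPM.

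Malat1 was lower in liver than in lung by a log2 difference of -0.93 (SE 0.05, q = 1.98e-31), short of the limit of 1, and lower than in kidney by -1.10 (SE 0.05, q = 8.94e-37). Liver had 10473 ± 2614 TMM-scaled CPM, lung 19604 ± 2650 and kidney 22113 ± 3749 (SD, n = 47). Relative to the median of all genes it was lower in liver under every alternative on counts and TPM, with differences of -1.25 to -0.85 against lung and -1.49 to -1.07 against kidney. Lung and kidney differed by -0.17 (q = 0.00201), which became 0.20 on library totals. DESeq2 gave -1.17 between liver and lung, past the limit. A strain pattern shared between tissues was not shown, and the largest correlation, that of liver with kidney, was r = 0.29 (rho = 0.27, p = 0.0522, q = 0.13, r = 0.16 without the 2 farthest strains).

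Neat1 varied widely between strains, and its difference between tissues depended on the scaling. It had 297 CPM without Rn45s in its lowest liver (CC016), 1896 at the median and 7472 in its highest (CC015). It had 733, 1646 and 3761 in lung, and 491, 1652 and 6085 in kidney. On CPM without Rn45s the tissues overlapped almost wholly, and the spread was widest in liver. On this scale strain took 56.1% of the sum of squares of Neat1 and tissue 0.116%. CC061 was among the highest strains throughout, with 5908 in liver, 3761 in lung and 5353 in kidney (ranks 3, 1 and 2 of 47), and CC031 among the lowest, with 370, 733 and 491 (ranks 46, 47 and 47). CC015 was first in liver and kidney, with 7472 and 6085, and 17th in lung with 1834.

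Neat1 correlated at r = 0.49 between lung and kidney (rho = 0.42, permutation p = 0.0005, q = 0.00375, r = 0.37 without the 2 farthest strains). For liver and kidney it was r = 0.46 (rho = 0.42, p = 0.00118, q = 0.0059, r = 0.40 without them). Between liver and lung r was 0.19 (rho = 0.16, p = 0.212, q = 0.397), and 0.33 on TMM-scaled CPM, past the threshold (q = 0.0497). On shares of all counts the lung and kidney value was 0.27, short of it (q = 0.195). With Lars2 and Mir6236 also out of the denominator the 3 values were 0.67, 0.52 and 0.31. The TMM-scaled difference was 1.28 between liver and lung (SE 0.12, q = 2.28e-18) and 0.95 between liver and kidney (SE 0.12, q = 2.72e-12), and 0.02 and 0.07 on library totals. Relative to the median of all genes liver was higher than lung by 0.97 to 1.42 and higher than kidney by 0.63 to 1.03 over the alternatives. The files give Neat1 2 transcripts and a length of 20745 to 20803 bases, near that of the longer one. How reads that fit both transcripts were counted was not tested.

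**Figure D5:**
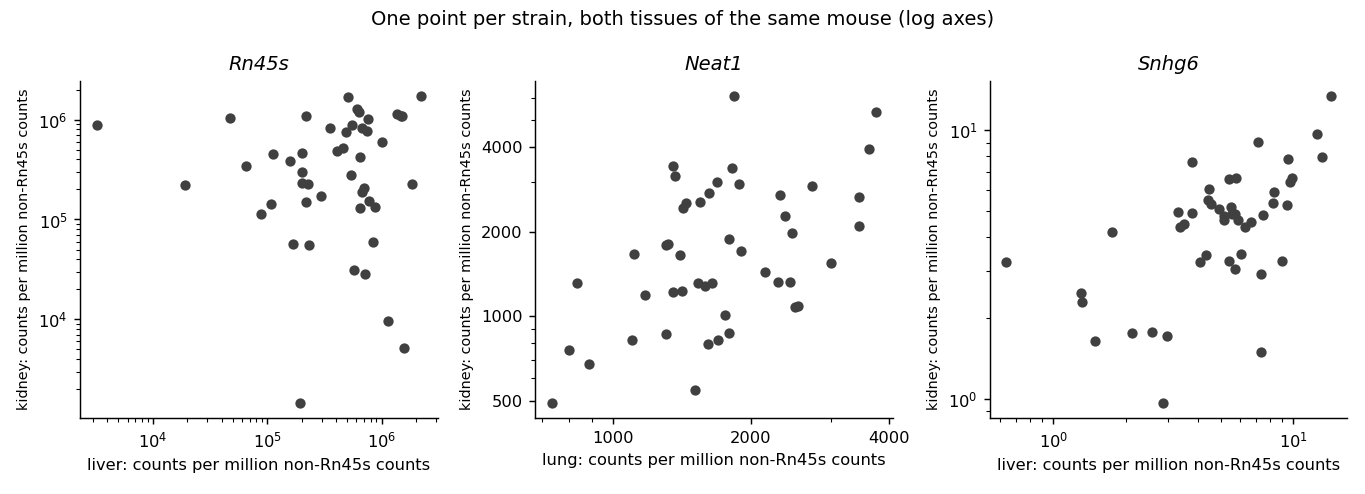
Level of an RNA in 1 tissue against that in another tissue of the same mouse, in counts per 1000000 non-Rn45s counts on log axes, 1 point per strain. Neat1 and Snhg6 tend to be high in the same strains in both tissues (r = 0.49 for Neat1 in lung and kidney, 0.60 for Snhg6 in liver and kidney), and Rn45s has r = -0.02 in liver and kidney.

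Gas5 was low, with 44 to 1605 counts per library. Its SD of log2 TMM-scaled CPM exceeded that of 43.7%, 46.9% and 43.8% of 12127 genes in liver, lung and kidney. In CPM without Rn45s it had 24.7 in its lowest liver (CC017), 43.8 at the median and 113 in its highest (CC030). It had 22.8, 64.1 and 127 in lung, and 21.7, 48.4 and 105 in kidney. The 3 tissues overlapped, and strains such as CC045 (75.5 in liver, 91.3 in lung, 73.2 in kidney) and CC059 (30.4, 39.5, 29.8) kept to 1 side of the median. The correlation between lung and kidney was r = 0.38 (rho = 0.40, p = 0.0085, q = 0.0255, r = 0.36 without the 2 farthest strains), and those with liver were 0.11 and 0.19 (q = 0.616 and 0.397). On TMM-scaled CPM both liver values passed, at 0.33 with lung (q = 0.0497) and 0.29 with kidney (q = 0.0976), and on shares of all counts the lung and kidney value did not (0.23, q = 0.291).

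The TMM-scaled difference of Gas5 was 0.74 between liver and lung (SE 0.07, q = 5.09e-19), 0.76 between liver and kidney (SE 0.07, q = 2.28e-19) and 0.02 between lung and kidney (q = 0.827), all short of the limit of 1. The sign of the first 2 reversed to -0.50 and -0.10 on library totals without Rn45s. Relative to the median of all genes liver was higher than lung by 0.39 to 0.81 and higher than kidney by 0.40 to 0.78 over the alternatives on counts and TPM.

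Snhg6 was the scarcest of the 5, and counting error weighs on it. It had 1 to 224 counts in liver (median 31), 2 to 85 in lung (median 24) and 4 to 91 in kidney (median 22), and 3 counts or fewer in 2 livers and 1 lung. In CPM without Rn45s it had 0.638 in its lowest liver (CC033), 5.41 at the median and 14.4 in its highest (CC002). It had 0.575, 3.72 and 6.83 in lung, and 0.969, 4.82 and 13.4 in kidney. The tissues overlapped, and CC002 was first in both liver and kidney while CC024 was among the lowest in all 3 (2.88, 1.81 and 0.969). The lowest liver rested on 1 count, a share of 1.98e-05% with a 95% Wilson interval of 3.49e-06% to 0.000112%, and the highest on 59 counts, 0.0013% (0.00101% to 0.00168%), and these intervals cover counting error only.

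Snhg6 correlated at r = 0.60 between liver and kidney (rho = 0.57, p = 1e-05, q = 0.00015, r = 0.61 without the 2 farthest strains). Between lung and kidney r was 0.41 (rho = 0.31, p = 0.00411, q = 0.0154, r = 0.34 without them), and between liver and lung 0.16 (q = 0.461). On shares of all counts the lung and kidney value was 0.31, short of the threshold (q = 0.161). Strain took 55.9% of its sum of squares. On TMM-scaled counts liver was higher than lung by 1.84 (SE 0.08, q = 4.89e-41) and than kidney by 1.12 (SE 0.08, q = 3.06e-25), and kidney was higher than lung (-0.72, SE 0.08, q = 2.24e-14). The sign held on library totals without Rn45s, at 0.56, 0.23 and -0.33, and liver exceeded lung relative to the median of all genes by 1.40 to 1.90 and kidney by 0.75 to 1.14 over the alternatives on counts and TPM.

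For Rn45s the fit on TMM-scaled counts gave 2.13 between liver and lung (SE 0.47, q = 2.07e-05) and 1.40 between liver and kidney (SE 0.47, q = 0.00474), with a standard error several times that of the other RNAs. In 31 of 47 mice the liver share exceeded that of lung, and in 24 of 47 that of kidney. Both calls were lost without the low-count filter, at 2.08 (SE 1.97, q = 0.313) and 0.90 (SE 1.97, q = 0.676). On library totals without Rn45s the differences were 0.89 and 0.51, under the limit of 1, and relative to the median of all genes they were 1.72 to 2.23 and 0.61 to 1.48. Lung and kidney differed by -0.73 (SE 0.47, q = 0.134). With all members on the scale of length, median TPM stood at 158266, 2369, 152, 30.8 and 24.8 in liver for Rn45s, Malat1, Neat1, Gas5 and Snhg6, at 83995, 13508, 161, 55.7 and 23.3 in lung, and at 106104, 10093, 130, 36.5 and 24.03 in kidney. The order of the 5 was the same in each tissue.

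Within a tissue, the RNAs appeared to move together or apart according to the denominator. On counts over all non-Rn45s counts, Rn45s and Malat1 correlated at r = -0.38 in liver (rho = -0.37, q = 0.017), -0.74 in lung (rho = -0.76, q = 0.0001) and -0.63 in kidney (rho = -0.74, q = 0.0001), and 9 of 12 pairs with Rn45s and 11 of 18 pairs among the other 4 RNAs passed q ≤ 0.1 over 30 correlations. With Lars2 and Mir6236 also out of the denominator, or on TMM-scaled CPM, none of the 12 and none of the 18 passed, with 1 and 3 pairs at an unadjusted p under 0.05 on the former scale and 1 and 2 on the latter. Over the pairs with Rn45s the median r was -0.40 on the first scale, 0.03 on the second and -0.03 on the third.

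The genes whose pattern over 47 libraries was most like that of each RNA, by the mean Spearman rho over the 3 tissues, are given without a test. For Rn45s they were Lars2 (0.947), Atn1 (0.592) and Mir6236 (0.591). For Malat1 they were Vps4b (0.724), Cpne3 (0.723) and Nktr (0.722), and for Gas5 Suco (0.715), Rap2c (0.701) and Nbeal1 (0.701). For Neat1 they were Stip1 (0.627), a cochaperone, Hsp90aa1 (0.622), the inducible form of the chaperone it serves, and Slc38a2 (0.609), an amino acid transporter. For Snhg6 they were Tcf24 (0.529), Txndc15 (0.529) and Igbp1 (0.518). On TMM-scaled CPM most of these values were lower. With Malat1, Vps4b had 0.354 in liver, 0.307 in lung and 0.237 in kidney, and Nktr 0.342, 0.367 and 0.411. With Neat1, Hsp90aa1 had 0.432, 0.534 and 0.490, and Slc38a2 0.255, 0.744 and 0.456. With Snhg6, Tcf24 had 0.610, 0.162 and 0.465, and Igbp1 0.392, 0.270 and 0.029. In the RefSeq gene order Tcf24 lay next but 1 to Snhg6, with 1 gene between them.

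Genes that act with these RNAs, and other noncoding RNAs of a similar kind, were listed by role, and 146 were tested. Of these 23 were called between liver and lung, 15 between liver and kidney and 18 between lung and kidney, against 55%, 36.4% and 46.1% of all genes. The direction of these counts depended on the scaling: 17 were higher in liver and 6 in lung with TMM, 10 and 13 with DESeq2 size factors, and 2 and 75 on library totals without Rn45s. Likewise 8 were higher in liver and 7 in kidney with TMM and 4 and 36 on library totals, and 7 in lung and 11 in kidney with TMM and 13 and 6 on library totals. On library totals the median of all genes was -1.28, -0.86 and 0.40 in the 3 pairs, and the share of all genes called is not given here. Counts of list genes on library totals, here and below, are therefore not read as results about the lists. With TMM, 23.9% of all genes were higher in liver and 31% in lung, and 15.6% in liver and 20.8% in kidney. Between lung and kidney 25.5% were higher in lung and 20.6% in kidney. List counts near these shares are likewise not read as results about a list. Of 19 tested snoRNA host genes other than Gas5 and Snhg6, 3 were higher in liver and 2 in lung, 4 were higher in liver and 4 in kidney, and 3 were higher in lung and 4 in kidney in the 3 pairs. On library totals without Rn45s these were 0 and 9, 2 and 9, and 3 and 2. Snhg18 was lower in liver than in lung and kidney (-3.10 and -4.54). The imprinted Rian was 3.75 higher in liver and 3.25 higher in lung than in kidney, although its liver CPM of 17.01 ± 23.1 (SD, n = 47) varied widely, and Meg3 was 3.12 higher in lung than in kidney. Host 1110038B12Rik was 1.96 higher in liver than in lung.

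Of 13 tested long noncoding RNAs of other kinds, 1 was higher in liver and 3 in lung, 1 in liver and 2 in kidney, and 2 in lung and 0 in kidney, and 0 and 11, 1 and 5, and 3 and 0 on library totals without Rn45s. Fendrr, transcribed beside Foxf1, had 44.2 ± 13.2 CPM in lung, 1.22 ± 0.71 in liver and 0.0805 ± 0.137 in kidney (SD, n = 47), with a log2 difference of -5.20 between liver and lung. Kidney was near 0, so no fold against it is given. Imprinted Peg13 was lower in liver than in lung (-2.85) and higher in lung than in kidney (1.77), and Airn, which silences its imprinted neighbours, was lower in liver than in kidney (-3.09). Of 17 listed small structural RNAs 7 were in the files and 6 tested, with 2 higher in the first tissue of each pair and none lower, and 1 and 3, 1 and 0, and 2 and 0 on library totals without Rn45s. Terc, the telomerase template RNA, had 3.31 ± 1.25 CPM in liver, 0.467 ± 0.332 in lung and 0.115 ± 0.127 in kidney (SD, n = 47). Rpph1, the RNA of RNase P, was higher in liver than in lung (1.03), with the sign turned on library totals (-0.18), and Vaultrc5, a vault RNA, higher in liver and in lung than in kidney (1.40 and 1.40). All q of the genes named in these lists were at most 3.12e-10.

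Of 43 tested genes for RNA polymerase I and ribosome assembly, 6 were higher in liver and 1 in lung, 1 each way between liver and kidney, and 4 higher in kidney than lung. Nop10 and Nhp2, which sit in the particles that pseudouridylate ribosomal RNA, were lower in lung than in kidney (-1.64 and -2.50). Nop10 was also higher in liver than in lung (1.71), Utp14a higher in liver than in kidney (1.32) and Taf1c, part of the polymerase I selectivity factor, lower in liver than in lung (-1.35). The median of the list was 0.58 between liver and lung against -0.06 for all genes, and -0.65 against -1.28 on library totals without Rn45s, on which 0 of the 43 were higher in liver and 11 in lung. Among 9 RNase P and Z subunits 3 were higher in liver and 0 in lung, led by Rpp40 (2.26) and Pop5 (1.92). Again Rpp40 (-2.60) and Pop5 (-1.79) were the 2 lower in lung than in kidney. Of all genes 23.9% were higher in liver than in lung and 20.6% higher in kidney than in lung. These list counts are therefore not read as a result about the subunits. On library totals without Rn45s Rpp40 and Pop5 differed by 1.01 and 0.68 between liver and lung.

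Among proteins of the nuclear bodies that hold Neat1 and Malat1 few were called. Of 24 listed paraspeckle proteins 16 were tested, and Nono, Hnrnpk and Tardbp were among those not tested, so nothing is shown for them. Of the 16, 0 were called in any pair by limma-voom or edgeR and 1 by DESeq2, lower in liver than in lung. By limma-voom 13, 10 and 11 had an unadjusted p under 0.05 in the 3 pairs. Of 21 proteins of nuclear speckles and splicing 1 was, U2af1, higher in liver than in lung (1.24, and -0.0096 on library totals). On library totals without Rn45s, where the median of all genes was -1.28, 13 of the 16 and 16 of the 21 were higher in lung than in liver. Of 19 factors of nonsense-mediated decay, which clears Gas5 and Snhg6 transcripts, 1 was called, Gspt1, higher in liver than in lung (1.19, and -0.059 on library totals) and lower in lung than in kidney (-1.24) at a low level of 1.15 ± 0.68 CPM in liver. On library totals without Rn45s 11 of the 19 were higher in lung and 7 in kidney than in liver.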

How the data were processed

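Liver, lung and kidney RNA-seq was analysed from 1 table of gene values per library, 47 per tissue. The authors mapped uniquely aligned reads to pseudo-genomes of each strain on mm9 with STAR 2.5.3a and quantified genes with RSEM, and the deposited tables hold expected counts, TPM and FPKM per gene. The deposited FPKM were not used. TPM in the deposited tables are scaled to the same sum in every library, Rn45s included.

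Expected counts were rounded (25 were not whole). Genes with CPM over 1 in at least 30% of libraries were tested with limma-voom 3.58.1 and TMM from edgeR 4.0.16, in R 4.3.3, with strain and tissue as terms, and called at q ≤ 0.1 and an absolute log2 difference of at least 1. The pairing comes from the animals: the 3 tissues of a strain are from 1 mouse. DESeq2 1.42.0 and edgeR's quasi-likelihood test were alternatives. Slopes on the Rn45s ratio were fitted by limma in each tissue on 47 libraries. Correlations used log2 of (count + 0.5) over the counts without Rn45s, and 2-sided permutation tests with 100000 draws (scipy 1.17.1, Python 3.11.15). TPM was recomputed after removing Rn45s, with a pseudocount of 1 on the log2 scale. Scripts were tested on simulated data.

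Total counts per library set the precision, and intervals are 95% Wilson intervals. Named genes were the 5 members, the 3 genes most like each, the 2 largest called differences per list and tissue pair, and the 3 slopes per direction and tissue with the smallest q. Members and lists were chosen with earlier results of these data known. Alternatives were other scalings, filters, tests and denominators, no strain block, and leaving out 11 strains with a library under 4000000 counts.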

Additional observations from a re-analysis of the deposited data

How the results depend on the processing

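Of 535 recomputed values, 376 kept their direction and their side of the threshold or moved little, 28 came to pass a threshold, 52 no longer passed, 42 changed sign and 37 moved. The causes were not tested. Scalings without Rn45s, Lars2 and Mir6236 were chosen after seeing the data.

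The median liver share of Rn45s was 53.7% of the other counts and 15.8% of TPM, against 34.9% of all counts.

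Tissue differences of the 5 RNAs without TMM follow the shift of all genes. On library totals without Rn45s, liver minus lung was -0.50 for Gas5, -2.16 for Malat1, 0.021 for Neat1, 0.89 for Rn45s and 0.56 for Snhg6, liver minus kidney was -0.10 for Gas5, 0.51 for Rn45s and 0.23 for Snhg6, and lung minus kidney was 0.20 for Malat1 and 0.051 for Neat1. Without Lars2 and Mir6236 as well, these were -0.44, -2.11, 0.10, 0.95 and 0.66, then -0.074, 0.57 and 0.29, then 0.17 and 0.015. On log2(TPM + 1), liver minus lung was -0.74 for Gas5, -2.42 for Malat1, -0.24 for Neat1, 0.64 for Rn45s and 0.19 for Snhg6, liver minus kidney was -0.20 for Gas5, -0.033 for Neat1, 0.40 for Rn45s and 0.084 for Snhg6, and lung minus kidney was 0.35 for Malat1 and 0.21 for Neat1. With a pseudocount of 0.1 these were -0.75, -2.42, -0.24, 0.64 and 0.20, then -0.21, -0.035, 0.40 and 0.081, then 0.35 and 0.21. On TPM without Rn45s they were -0.71, -2.39, -0.21 and 0.22 for Gas5, Malat1, Neat1 and Snhg6, then -0.18, -0.0064 and 0.11 for Gas5, Neat1 and Snhg6, then 0.35 and 0.21. Malat1 passed the limit between liver and lung with DESeq2 (-1.17) and with its size factors (-1.17), and Neat1 between liver and kidney with edgeR (1.01). Without the low-count filter Rn45s no longer passed, at 2.08 and 0.90.

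Without the strain block that pairs the tissues of a mouse, the liver and lung differences were 2.16 for Rn45s, -0.94 for Malat1, 1.25 for Neat1, 0.72 for Gas5 and 1.74 for Snhg6, and no call among the 5 RNAs changed in any tissue pair. Leaving out single replicates does not apply at 47 strains per tissue.

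Genes of the role lists called between liver and lung numbered 77 on library totals without Rn45s, 72 without Lars2 and Mir6236 as well, 86 on log2(TPM + 1), 100 with a pseudocount of 0.1 and 85 on TPM without Rn45s, against 23. Between liver and kidney they numbered 40, 36, 34, 46 and 33, against 15, and between lung and kidney 31 with a pseudocount of 0.1, against 18.

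Correlations between tissues on TMM-scaled CPM came to pass for Gas5 (0.33 between liver and lung, 0.29 with kidney) and Neat1 (0.33, liver and lung), and without Lars2 and Mir6236 for Gas5 (0.29) and Neat1 (0.31) between liver and lung. On shares of all counts those between lung and kidney no longer passed for Gas5 (0.23), Neat1 (0.27) and Snhg6 (0.31).

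Within tissues, 0 pairs passed on TMM-scaled CPM and 0 without Lars2 and Mir6236, against 9 with Rn45s and 11 among the other RNAs, and 18 of the latter passed on shares of all counts. Signs changed on TMM-scaled CPM for Malat1 with Neat1 (-0.00051) and with Snhg6 (-0.11) in kidney, Neat1 with Snhg6 in lung (-0.012), and Rn45s with Gas5 (0.0075) and Neat1 (0.046) in lung and with Malat1 in liver (0.056). Without Lars2 and Mir6236 these were -0.0025, -0.075, -0.031, 0.0499, 0.073 and 0.15, and Rn45s with Gas5 in kidney (0.045) and with Malat1 (0.018) and Snhg6 (0.0095) in lung also changed sign. Neat1 with Snhg6 in liver changed to 0.28 on shares of all counts.

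Without Lars2 and Mir6236 the TPM factor was over 1.5 in 12 liver, 14 lung and 15 kidney libraries, against 6, 7 and 4, and genes moving with Rn45s on TPM numbered 855, 163 and 432, against 3622, 9451 and 5627. On counts 6070, 5415 and 6356 genes were called without the low-count filter, against 967, 59 and 536, 35 in lung and 162 in kidney with depth as a covariate, and 160 in liver without the 11 shallow strains. Depth limits Snhg6 most, with a median of 22 to 31 counts per tissue.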
